A study of Danio rerio with 246 samples.

Results

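The chemokine ligand genes were taken as every gene of the count table whose symbol is ccl or cxcl followed by a digit, without the receptors. Of the 21876 genes, 2527 carry no symbol and could not be matched in this way. The rule gave 32 of the 21876 genes, 22 of them ccl and 10 cxcl. Of these, 31 carry a lower-case zebrafish symbol and 1 is written CXCL12, which the RefSeq table pairs with cxcl12a. At least 1 read was found for 30 genes, 15 reached 10 counts per 1000000 reads (CPM) in the summed profile of at least 1 reporter line, and ccl39.2 and cxcl19 had no read in any cell.

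Chemokines are small secreted proteins that bind G protein-coupled receptors on white blood cells and guide where those cells move and settle. The CC (ccl) and CXC (cxcl) groups are named after the spacing of conserved cysteines near the start of the protein. In bony fish many of these genes lie in tandem arrays of closely related copies, so most zebrafish members have no simple counterpart in mammals, and the ccl33 to ccl39 and cxcl32 names are given no role here. In the marrow the pathway is best known for CXCL12, which holds blood stem cells and developing white cells near stroma through CXCR4.

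The data were reads of single cells from the whole kidney marrow of adult zebrafish, where fish make their blood cells, each sorted by its fluorescence into a plate well and made into a library by a modified Smart-seq2 method. The 246 cells came from 6 reporter lines, named in the labels as Runx123_GFP (39 cells), cd41_GFPlow (43), mpx_EGFP (47), rag2_GFP (48), lck_GFP (38) and lck_GFP_rag1 (31). The labels add nothing on the transgenes, on the part of the last name after lck_GFP, or on the strain, age or number of the animals, and the extraction text mentions kidney marrow or thymus for the cells in general while the tissue label is kidney marrow. Because no animals are named, each line counts as 1 sample. Lines were therefore compared without a p-value, differences are descriptions by size, and every interval is a 95% interval that covers the counting of reads or cells only. The cells of a line held 23028484 (lck_GFP) to 47836984 reads (cd41_GFPlow) together, and single cells 47630 to 2969770 reads. Each line had a plate of its own, apart from rag2_GFP and lck_GFP, which shared plate 2 in separate wells. Line and plate therefore cannot be told apart, except between rag2_GFP and lck_GFP.

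Markers of each lineage were read beside the ligands, with a cell counted as having a list when at least 3 of its markers reached 10 CPM. A marker symbol that was absent was also tried without its last letter or number. Genes that share the shorter symbol were pooled as a single marker, which joined 3 genes as mpeg1.1, 6 as mfap4 and 2 as slc4a1a. The neutrophil list was found in 37 of 47 mpx_EGFP cells, the B cell list in 34 of 48 rag2_GFP cells and the T cell list in 20 of 38 lck_GFP cells. In lck_GFP_rag1 no cell had the T cell list, with 4 of its 6 markers without a read, and 12 of 31 cells had the natural killer (NK) and cytotoxic list. In cd41_GFPlow, itga2b, the gene also called cd41, was at 0.314 CPM, against 1595 CPM in Runx123_GFP. The labels do not relate the sorted fluorescence to this transcript. The line was mixed: 11 of its 43 cells had the macrophage list, 2 the progenitor list, 2 the erythroid list and 1 the neutrophil list. The neutrophil genes npsn and lyz were at 3003 and 3024 CPM there and reached 10 CPM in 13 and 9 cells. The neutrophil marker cpa5 was not matched and mmp9 had no read in cd41_GFPlow, so this list needed npsn, lyz and mmp13a together. All 5 progenitor markers reached 10 CPM in the line. In Runx123_GFP the thrombocyte list was found in 16 of 39 cells, the erythroid list in 11 and the progenitor list in 5. There 4 of the 5 progenitor markers reached 10 CPM, and the summed list was at 1598 CPM, against 381.4 CPM in cd41_GFPlow.

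Chemokine ligand reads were concentrated in the lck_GFP_rag1 line, where nearly every cell held at least 1 ligand gene at 10 CPM or more. The share of such cells was 29 of 31 (93.5%, exact Clopper-Pearson interval 78.6 to 99.2%) in lck_GFP_rag1. It was 12 of 38 (31.6%, 17.5 to 48.7%) in lck_GFP and 13 of 43 (30.2%, 17.2 to 46.1%) in cd41_GFPlow. The 3 other lines had 5 of 47 (10.6%, 3.55 to 23.1%) in mpx_EGFP, 3 of 48 (6.25%, 1.31 to 17.2%) in rag2_GFP and 2 of 39 (5.13%, 0.627 to 17.3%) in Runx123_GFP. The interval of lck_GFP_rag1 lies above those of all 5 other lines, the intervals of lck_GFP and cd41_GFPlow cover almost the same range, and the lowest 3 overlap one another, with that of mpx_EGFP also reaching into those of lck_GFP and cd41_GFPlow. Each cell was also thinned to 200000 reads and shallower cells were left out, which kept 30 cells of lck_GFP_rag1, 32 of lck_GFP, 43 of cd41_GFPlow, 47 of mpx_EGFP, 41 of rag2_GFP and 36 of Runx123_GFP. The shares were then 93.3% in lck_GFP_rag1, 21.9% in lck_GFP, 30.2% in cd41_GFPlow, 12.8% in mpx_EGFP, 4.88% in rag2_GFP and 5.56% in Runx123_GFP. In lck_GFP, 5 of the 12 cells with a ligand (F05, F07, G07, H03 and H07) were among the shallow cells left out.

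The reads of all ligand genes together were 7927 CPM in lck_GFP_rag1 and 706.9 CPM in lck_GFP. They were 105.8 CPM in cd41_GFPlow, 102.6 in Runx123_GFP, 36.44 in rag2_GFP and 22.04 in mpx_EGFP. In lck_GFP_rag1 the level was spread over the cells, with a median of 7265 CPM per cell and 7.78% of the reads in the top cell. In lck_GFP the top cell gave 48.6% of the reads and in Runx123_GFP 96.8%, and in all 5 other lines the median cell had none. Cells also had several ligand genes at once. In 20 of 31 lck_GFP_rag1 cells, 6 of 38 lck_GFP cells and 2 of 43 cd41_GFPlow cells 3 or more reached 10 CPM. No cell of the other lines had as many. The highest number in 1 cell was 6. Similar copies count as separate genes here and may share reads, which was not tested. The 5 lck_GFP cells with 5 genes all held ccl36.1, ccl38.6, ccl38a.5, ccl38a.4 and ccl38.1. In the shallowest of them (H07, 48422 reads) 1 read is above 10 CPM.

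**Figure D1:**
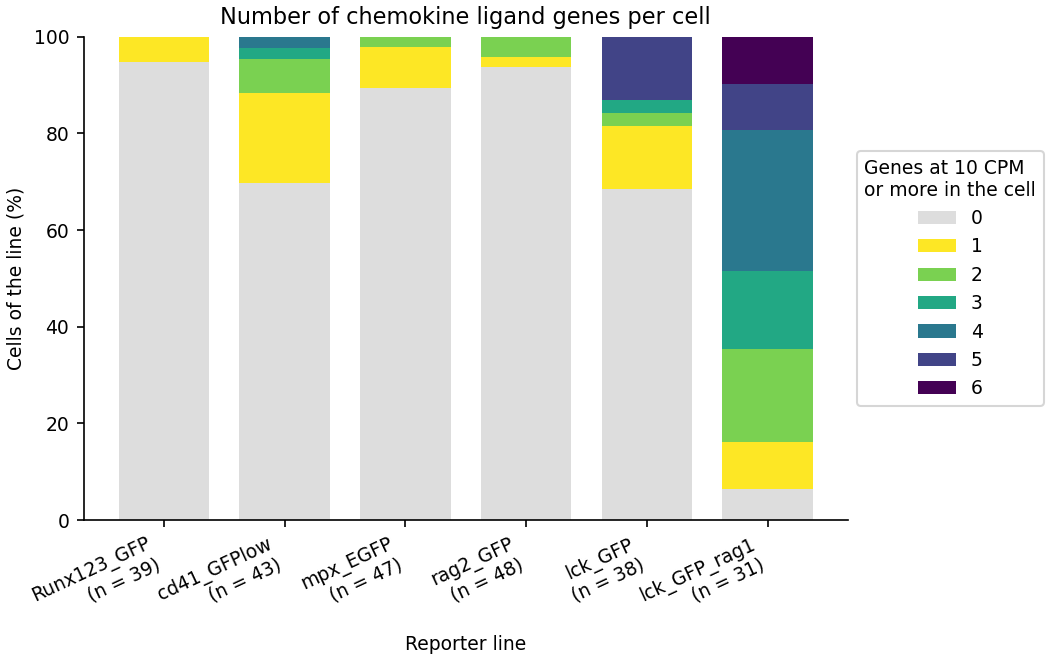
Share of the cells of each reporter line (vertical axis, percent) with 0 to 6 chemokine ligand genes at 10 CPM or more (colours). In lck_GFP_rag1 only 2 of 31 cells had none, while in each of the other 5 lines most cells had none.

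A gene was called by size where its summed CPM was at least 4-fold above or below the mean CPM of the 5 remaining lines, after adding 1 CPM to both, among genes at 10 CPM or more in at least 1 line. In lck_GFP_rag1, 8 of the 15 measured ligand genes were called higher, against 8.59% of all 12660 genes tested. In cd41_GFPlow 4 of 15 were called higher (6.43% of all genes), in lck_GFP 2 (8.64%) and in mpx_EGFP 1 (6.03%). In Runx123_GFP and rag2_GFP none was, where the shares of all genes were 11.3% and 15.9%. The median log2 ratio of the 15 genes was 3.07 in lck_GFP_rag1, against -1.98 over all genes tested. The filter uses the same levels, so a gene at 10 CPM in 1 line alone was measured because it was high there. In lck_GFP_rag1 this holds for ccl34b.4, ccl34b.9, ccl39.6, cxcl11.4 and cxcl32b.1. Of these, ccl34b.9, ccl39.6 and cxcl11.4 reached it from 1 or 2 cells. The counts and the median are therefore descriptions and not a test.

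Lower calls numbered 14 of 15 in Runx123_GFP (25.3% of all genes), 14 in mpx_EGFP (39.2%), 13 in rag2_GFP (39.2%), 11 in lck_GFP (47.2%), 10 in cd41_GFPlow (20.9%) and 3 in lck_GFP_rag1 (49.7%). A gene that is high in 1 line raises the mean to which the others are compared, so a lower call can mirror a high level elsewhere. Of the 15 genes, 11 reached 10 CPM in exactly 1 line and 4 (ccl36.1, ccl38.6, ccl38a.5 and ccl35.1) in more than 1.

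**Figure D2:**
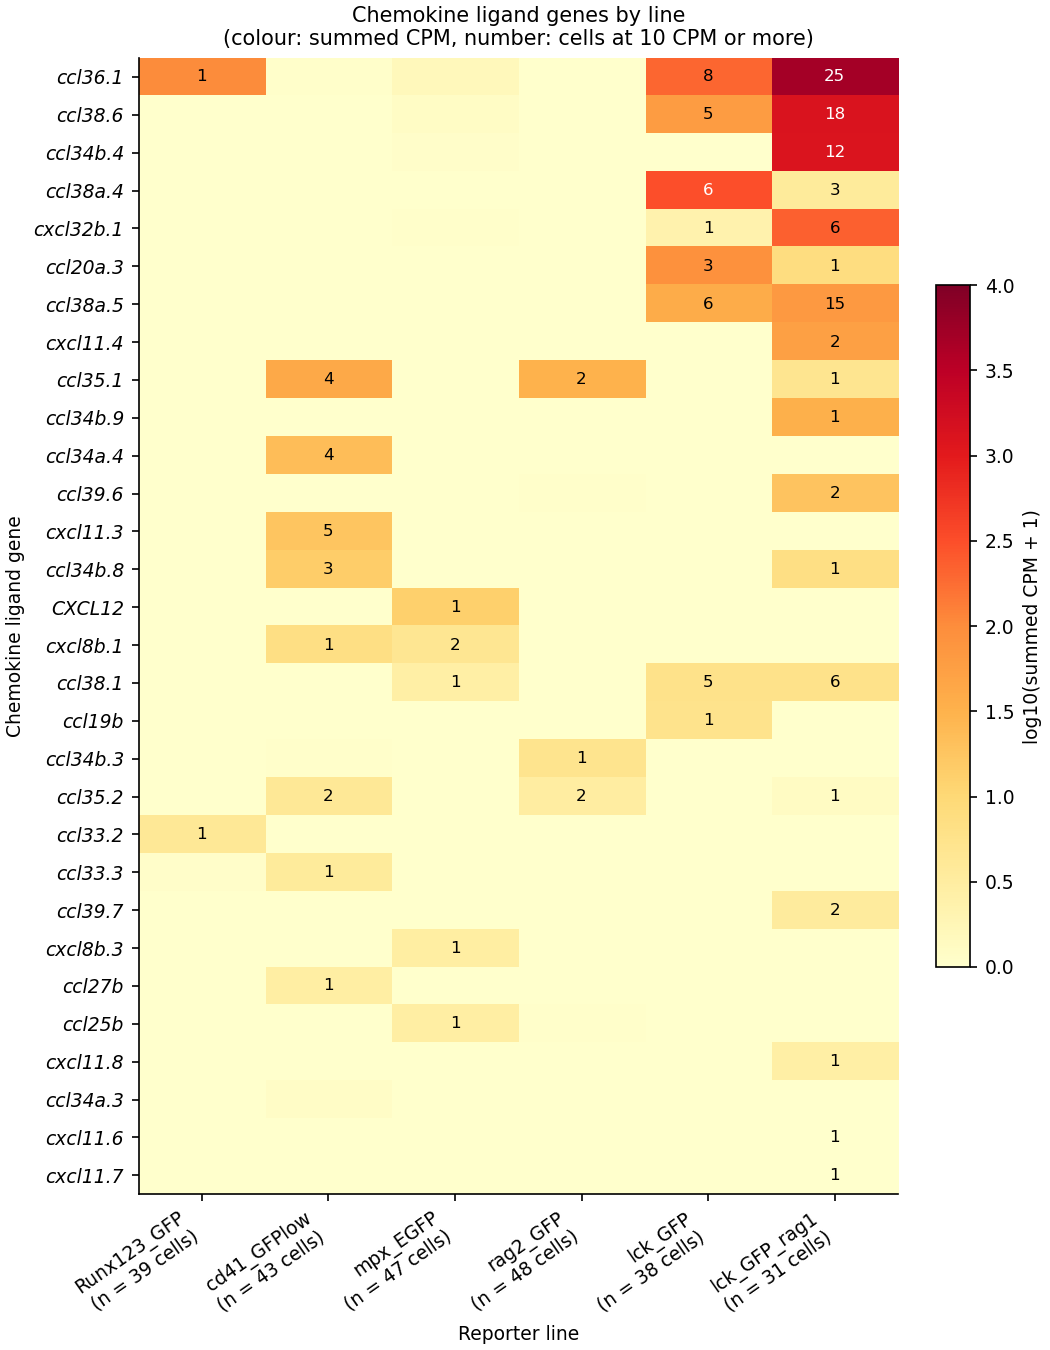
Summed level of the 30 chemokine ligand genes with a read (rows, highest first) in each reporter line (columns). Colour is log10(summed CPM + 1), and the number is how many cells of the line reached 10 CPM. The upper rows are filled in 1 or both of the 2 lck lines (ccl34b.4, for example, had no read in lck_GFP), and a second group of genes is filled in cd41_GFPlow.

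The ligand gene with the most reads was ccl36.1 (ENSDARG00000105263). Its summed level was 4930 CPM (exact Poisson interval 4909 to 4951) in lck_GFP_rag1, 202.5 CPM (196.7 to 208.4) in lck_GFP and 99.4 CPM (96.2 to 102.7) in Runx123_GFP. It was 0.586 CPM in mpx_EGFP and 0.0627 CPM in cd41_GFPlow, from 14 and 3 reads, and rag2_GFP had no read. The gene reached 10 CPM in 25 of 31 lck_GFP_rag1 cells (80.6%, 62.5 to 92.5%), 8 of 38 lck_GFP cells (21.1%, 9.55 to 37.3%) and 1 of 39 Runx123_GFP cells. Among the lck_GFP_rag1 cells that had it, the level ran from 1049 through a median of 5267 to 14810 CPM. The 6 cells without it had at most 2.42 CPM, so positive and negative cells of this line were separated by a wide gap. In the 8 lck_GFP cells it ran from 18.04 CPM, in G07 with 55429 reads where 1 read is above 10 CPM, to 2141 CPM. The highest of these stayed below the lck_GFP_rag1 median, and 1 cell (G09) gave 67.2% of the line's reads. Over the summed reads the level was 24.35-fold (23.65 to 25.07) higher in lck_GFP_rag1 than in lck_GFP. With the cell that had the most reads of the gene left out of each line it was 4824 and 70.95 CPM. In bulk sums fewer positive cells and less RNA per cell cannot be told apart, and here both the share of cells and the level per positive cell were lower in lck_GFP.

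The Runx123_GFP signal of ccl36.1 came from a single cell, well C03, at 6981 CPM. That cell had 1 marker of all lists at 10 CPM, tbx21, a transcription factor gene of NK and cytotoxic lymphocytes, and no marker of the progenitor, erythroid or thrombocyte lists. Without it the line had no ccl36.1 read.

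The next gene, ccl38.6 (ENSDARG00000041923), was at 1302 CPM (1291 to 1312) in lck_GFP_rag1 and 60.7 CPM (57.5 to 63.9) in lck_GFP. Outside these it had 5 reads in mpx_EGFP (0.209 CPM) and none in the 3 other lines. It reached 10 CPM in 18 of 31 lck_GFP_rag1 cells, from 303 to 9702 CPM, and in 5 of 38 lck_GFP cells, from 427 to 3635 CPM. The 2 lines therefore overlap in level per positive cell and differ in the share of cells, 58.1% (39.1 to 75.5%) against 13.2% (4.41 to 28.1%). All 18 of the lck_GFP_rag1 cells and all 5 of the lck_GFP cells also had ccl36.1, and 7 and 3 cells had ccl36.1 without ccl38.6.

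The gene ccl34b.4 (ENSDARG00000094002), was nearly confined to lck_GFP_rag1. It was at 1272 CPM (1261 to 1282) there, with 0 reads in lck_GFP, rag2_GFP and Runx123_GFP, 2 in mpx_EGFP and 1 in cd41_GFPlow. Against the floor of 3 reads it was at least 9762-fold higher in lck_GFP_rag1 than in lck_GFP, and 0 of 38 lck_GFP cells allows a share of up to 7.89%. It reached 10 CPM in 12 of 31 cells (38.7%, 21.8 to 57.8%), at 1115 to 8272 CPM with a median of 5395. The other 19 cells had at most 3.05 CPM. Of the 12 cells, 10 also had ccl36.1, and 2 (B04 and D10) had it without ccl36.1.

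Near it in the RefSeq order of genes (assembly GRCz12tu) stands cxcl32b.1 (ENSDARG00000071499), a CXC gene close to the ccl34b genes. It was at 222.0 CPM (217.5 to 226.5) in lck_GFP_rag1, from 6 cells at 52.1 to 1924 CPM. In lck_GFP it was at 1.22 CPM, all from 1 cell (H05), which makes the lck_GFP_rag1 level 182.6-fold higher (126.2 to 274.9). Of its 6 cells in lck_GFP_rag1, 4 had ccl36.1 and 3 had ccl34b.4. The 2 cells with ccl34b.4 but no ccl36.1 both had it, at 1360 and 1445 CPM.

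**Figure D3:**
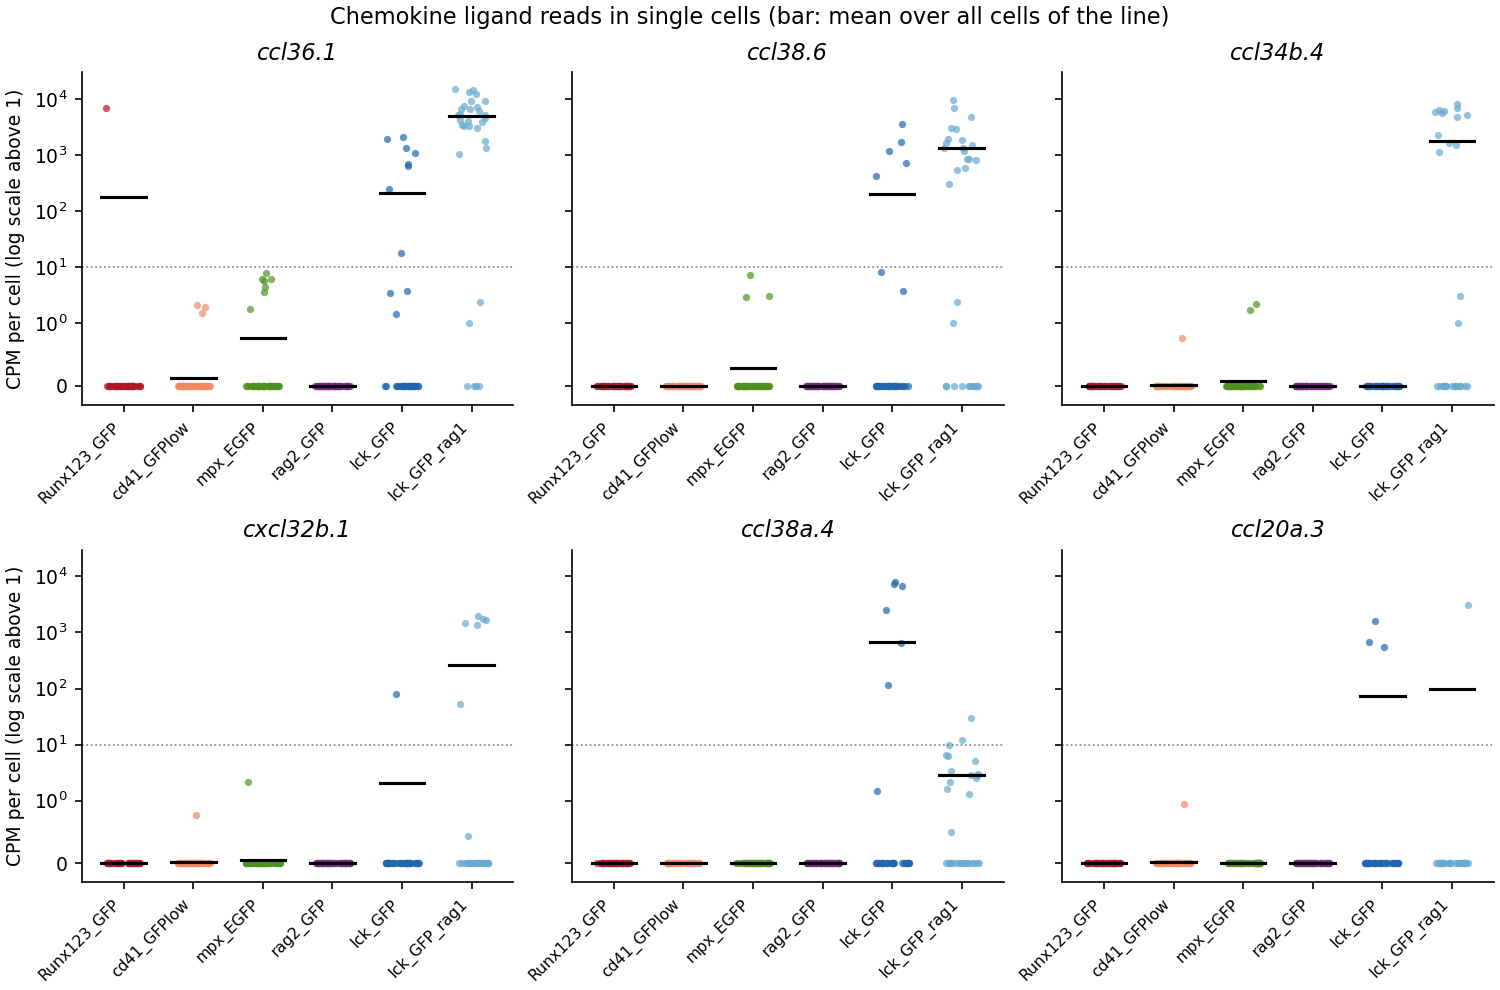
CPM of 6 chemokine ligand genes in each cell (points) by reporter line, on an axis that is logarithmic above 1 CPM. Black bars are means over all cells of a line and the dotted line is 10 CPM. In lck_GFP_rag1 positive and negative cells of ccl36.1, ccl38.6 and ccl34b.4 are separated by a gap, and ccl38a.4 is above 50 CPM in lck_GFP cells only.

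The cells that held these ligands in lck_GFP_rag1 also held some markers of cytotoxic lymphocytes. Of the 25 cells with ccl36.1, nkl.2, an NK-lysin gene whose product breaks membranes, reached 10 CPM in 19. The receptor chain gene il2rb did so in 18, tbx21 in 9 and lck in 15. Among the 6 cells without ccl36.1 the counts were 1, 2, 0 and 1. Other genes of the list gave smaller counts, with the NK-lysin genes nkl.4 in 7 of 25 and 0 of 6 and nkl.3 in 1 of 25 and 0 of 6, the granzyme gene gzma in 2 of 25 and 1 of 6, and the perforin gene prf1.1 in 1 of 25 and 1 of 6. Of the T cell list, themis reached 10 CPM in 5 of 25 and 0 of 6 and il7r in 3 of 25 and 0 of 6. The genes cd4-1, cd8a, itk and zap70 did so in no cell of the line. Reads differed too, with medians of 1311032 and 733789.5, and their part in these counts was not tested. The summed NK and cytotoxic list had a median of 2657 CPM (0 to 13120) in cells with ccl36.1 and 6.64 CPM (0 to 690.7) in cells without.

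Cells with ccl34b.4 differed in marker counts from the remaining cells of the line. The gene nkl.4 reached 10 CPM in 6 of 12 cells with ccl34b.4 and 1 of 19 without, and gzma in 3 of 12 and 0 of 19. The order was opposite for tbx21, with 1 of 12 and 8 of 19. For nkl.2 the counts were 9 of 12 and 11 of 19, and for il2rb 7 of 12 and 13 of 19. For prf1.1 they were 2 of 12 and 0 of 19, and for nkl.3 0 of 12 and 1 of 19. The 19 cells include F12 and H05 with the macrophage list and H08 with kidney tubule genes. Median reads were 1001780 with and 1547908 without the gene, and their part in these counts was not tested. These counts are descriptions over cells of 1 line.

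The 6 lck_GFP_rag1 cells without ccl36.1 were of several kinds. B04 and D10 had ccl34b.4 and cxcl32b.1. F12 and H05 had 7 and 4 of the 7 macrophage markers and no read of ccl36.1, ccl38.6 or ccl34b.4. D04 and H08 had no ligand at 10 CPM. H08 had the kidney tubule genes slc12a3 and cdh17, and il2rb was the only marker of D04.

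The lck_GFP line used the neighbouring ccl38 genes in a different proportion. In RefSeq (GRCz12tu) ccl38.6, ccl38a.5 and ccl38a.4 stand side by side with no protein-coding gene between them. The gene ccl38a.4 (ENSDARG00000041917) was at 310.8 CPM (303.6 to 318.1) in lck_GFP and 2.64 CPM (2.18 to 3.18) in lck_GFP_rag1, and had no read in the 4 other lines. It was 117.7-fold higher in lck_GFP (97.71 to 143.0), the opposite order to ccl38.6, which was 21.46-fold higher in lck_GFP_rag1 (20.35 to 22.64). In lck_GFP, 6 of 38 cells had ccl38a.4 at 10 CPM or more. Their levels were 115.3 CPM in H12, 648 in F07, 2540 in G09, 6650 in H07, 7332 in F05 and 7833 in G05. In lck_GFP_rag1, 15 cells had a read and 3 reached 10 CPM, with 30.37 CPM the highest, so the 2 lines did not overlap in cells above 10 CPM. G09 gave 51.9% of the lck_GFP reads, and without it the line was at 159.5 CPM.

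Within single cells the proportion of the 2 genes separated the lines completely. In the 5 lck_GFP cells with ccl38.6 at 10 CPM or more there were 38.1 to 1080 ccl38a.4 reads per 100 ccl38.6 reads, with a median of 595. In the 18 such lck_GFP_rag1 cells there were 0 to 0.6 per 100, with a median of 0.185. Such a ratio is taken within a cell and needs no scaling for depth. Read pairs mapped to several places had a median share of 5.97% in lck_GFP and 5.7% in lck_GFP_rag1, and how reads between similar copies were assigned is not given in the sources used here. The low ccl38a.4 values of lck_GFP_rag1 occurred in cells with ccl38.6, in every one of the 15.

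**Figure D4:**
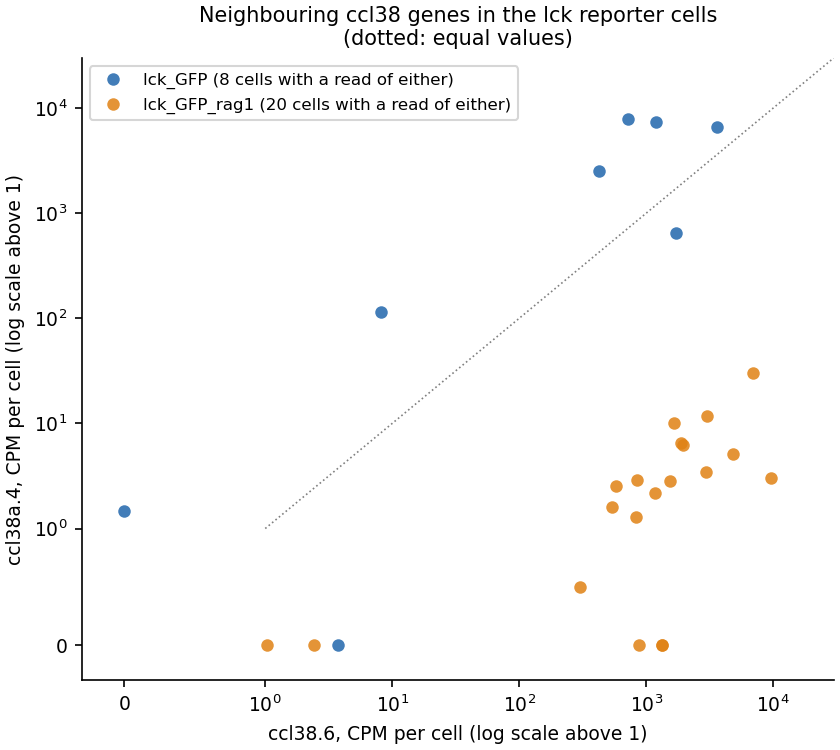
CPM of ccl38a.4 (vertical) against ccl38.6 (horizontal) in each lck_GFP (blue) and lck_GFP_rag1 (orange) cell with a read of either, on axes logarithmic above 1 CPM. All orange points lie below the dotted line of equal values, 2 of them (D04 and H08, each with 1 ccl38.6 read) near its lower end, and 5 of the 6 lck_GFP cells with ccl38a.4 at 10 CPM or more lie above it.

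The gene between them, ccl38a.5 (ENSDARG00000041835), was intermediate. It was at 68.4 CPM (65.9 to 70.9) in lck_GFP_rag1, from 15 cells at 24.63 to 804.3 CPM, and at 36.4 CPM (34.01 to 38.98) in lck_GFP, from 6 cells at 27.56 to 826.1 CPM. The ranges per positive cell overlap, with medians of 86.04 CPM in lck_GFP_rag1 and 721.2 CPM in lck_GFP. The summed levels differed 1.88-fold (1.74 to 2.03), higher in lck_GFP_rag1, whereas the mean of the per-cell CPM was 77.88 in lck_GFP_rag1 and 86.59 in lck_GFP, the opposite order. Per 100 ccl38.6 reads it had 22.7 to 99.0 reads in lck_GFP cells and 0 to 14.8 in lck_GFP_rag1 cells, again without overlap. Per 100 ccl38a.5 reads, ccl38a.4 had 88.7 to 1090 reads in lck_GFP cells, with a median of 884. In lck_GFP_rag1 cells it had 0 to 6.56, with a median of 4.0. Similar copies may share reads, and the part of shared reads in these ratios was not tested. In lck_GFP the same 6 cells held ccl38a.5 and ccl38a.4, and in lck_GFP_rag1 all 15 cells with ccl38a.5 had ccl38.6.

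Another copy, ccl38.1 (ENSDARG00000041919), stayed below 10 CPM in every summed profile, at 4.73 CPM in lck_GFP, 4.70 in lck_GFP_rag1 and 1.80 in mpx_EGFP. The summed levels of the 2 lck lines did not differ beyond counting error (0.993-fold, 0.782 to 1.27), while the mean of the per-cell CPM was 13.32 in lck_GFP and 5.49 in lck_GFP_rag1. Per 100 ccl38.6 reads it had 5.22 to 14.4 reads in the 5 lck_GFP cells and 0 to 1.31 in the 18 lck_GFP_rag1 cells with ccl38.6 at 10 CPM or more, without overlap. The gene ccl38.1 reached 10 CPM in 5 lck_GFP and 6 lck_GFP_rag1 cells, all of which had ccl38.6, and in 1 mpx_EGFP cell (F09, 88.28 CPM) with the neutrophil markers npsn and lyz and no other ligand.

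The lck_GFP cells with these ligands carried T cell markers, as did cells of the line without them, and had fewer reads. Of the 8 cells with ccl36.1, il7r, the interleukin 7 receptor gene of T cells and their precursors, reached 10 CPM in 7, against 22 of the 30 cells without ccl36.1, and themis, which acts in T cell development, in 6 against 14 of 30. The kinase genes zap70 and itk of T cell receptor signalling did so in 4 of 8 against 13 of 30 and in 1 of 8 against 12 of 30, and cd4-1 in 2 of 8 against 6 of 30. The co-receptor gene cd8a did so in 0 of 8 against 6 of 30 without ccl36.1, and nkl.2, nkl.4, gzma and tbx21 in none of the line. Of the cytotoxic list, il2rb did so in 4 of 8 against 3 of 30 and prf1.1 in 3 of 8 against 2 of 30. The neutrophil gene npsn reached 10 CPM in 5 of 8 against 1 of 30, with a neutrophil list median of 46.79 CPM (0 to 143) against 0 (0 to 2111). No macrophage marker had a read in the line. Median reads were 218084 in the 8 cells and 696107.5 in the 30, and in the shallowest (H07, 48422 reads) 1 read is above 10 CPM. The same holds for G07 (55429 reads), which counts among the 8 with ccl36.1 at 18.04 CPM and had npsn and themis. The part of neutrophil transcripts and of depth in these counts was not tested. After thinning to 200000 reads, 3 of the 6 cells with ccl38a.4 in lck_GFP were deep enough to stay, and all 3 remained above 10 CPM.

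A different set of lck_GFP cells held ccl20a.3 (ENSDARG00000101040). The mammalian CCL20 protein draws cells with CCR6, among them some T and B cells. It was at 86.0 CPM (82.3 to 89.9) in lck_GFP, from 3 of 38 cells (F02, G12 and H04) at 540.4, 686.7 and 1611 CPM. In lck_GFP_rag1 it was at 6.64 CPM (5.89 to 7.46), all from the cell H05 at 3083 CPM, and in the 4 other lines only 1 read was found, in cd41_GFPlow. The summed level was 12.96-fold higher in lck_GFP (11.44 to 14.73), while the highest single cell was in lck_GFP_rag1, and by the mean of per-cell CPM the order was 74.69 in lck_GFP and 99.45 in lck_GFP_rag1. All 3 lck_GFP cells had il7r and themis and none had ccl36.1 at 10 CPM. The remaining ligand of this line was ccl19b, whose mammalian relative CCL19 draws T cells through CCR7, at 570.3 CPM in 1 cell (H03) with T cell markers.

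In cd41_GFPlow another group of ligands appeared, from few cells and largely in those with macrophage markers. At least 1 ligand reached 10 CPM in 7 of the 11 cells with the macrophage list (63.6%, 30.8 to 89.1%) and in 6 of the 32 others (18.8%, 7.21 to 36.4%), and these intervals overlap. Median reads were 1203982 and 1080853. The summed macrophage list had a median of 984 CPM in the 13 cells with a ligand and 0 in the 30 without, with ranges of 0 to 24970 and 0 to 7329 CPM.

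**Figure D5:**
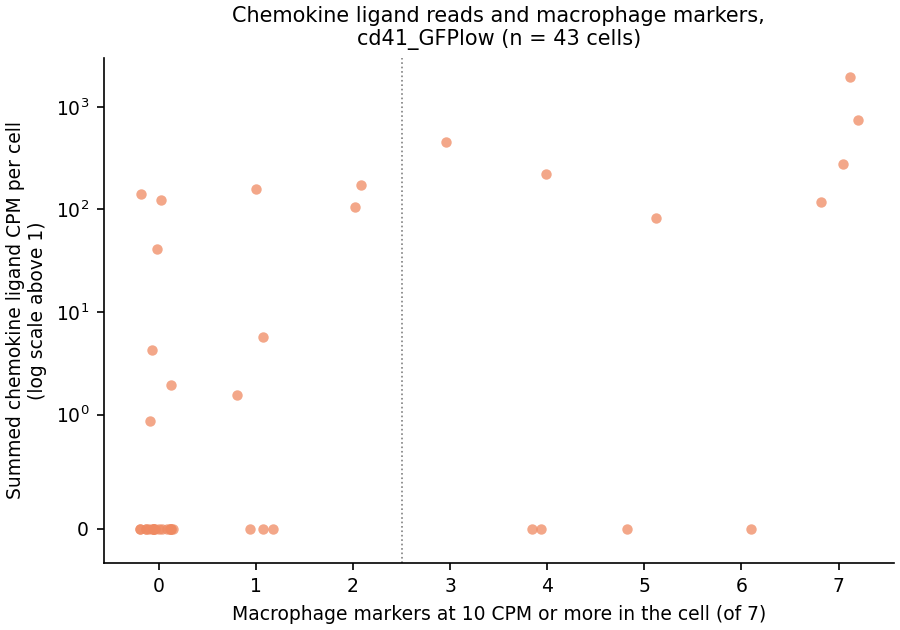
Summed CPM of all chemokine ligand genes (vertical, logarithmic above 1) against the number of macrophage markers at 10 CPM or more (horizontal) in the 43 cd41_GFPlow cells. Right of the dotted line are the 11 cells with at least 3 markers, of which 7 have a ligand at 10 CPM or more.

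The gene cxcl11.3 (ENSDARG00000102514), of a group named after mammalian CXCL11, which draws activated T cells through CXCR3, was at 17.4 CPM (16.3 to 18.6) in cd41_GFPlow and had no read in any other line. It came from 5 cells at 82.99, 87.6, 158.5, 222.6 and 236.8 CPM. Of these, 3 had the macrophage list, and the other 2 had 1 or 2 of its markers. Outside the cells with the list the line was at 8.47 CPM.

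The gene ccl34a.4 (ENSDARG00000090873) was found in cd41_GFPlow alone as well, at 21.3 CPM (20.01 to 22.65), from 4 cells at 70.7 to 610.0 CPM, of which D06 gave 75.1% of the reads. All 4 had the complement genes c1qa, c1qb and c1qc, and without cells with the macrophage list no read was left. Its neighbour ccl34a.3 had 8 reads in the whole table.

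The gene ccl35.1 (ENSDARG00000103466) was in cd41_GFPlow at 40.3 CPM (38.5 to 42.1), in rag2_GFP at 30.1 CPM (28.2 to 32.1) and in lck_GFP_rag1 at 3.90 CPM (3.33 to 4.54). It rested on few cells: 4 in cd41_GFPlow, with 81.4% of the reads from D06, 2 in rag2_GFP and 1 in lck_GFP_rag1. Without cells with the macrophage list cd41_GFPlow was at 4.99 CPM and the log2 ratio to the other lines was -0.39 instead of 2.40. By the mean of per-cell CPM rag2_GFP was the higher, at 112.2 against 37.65 CPM. The 2 rag2_GFP cells were unlike: D10 had the B cell markers pax5, ighm and cd37, and C05 had 3 B cell and 3 thrombocyte markers. C05 also had hbaa2 of the erythroid list and the pooled marker mpeg1.1 of the macrophage list. It had 94468 reads, so that 1 read is above 10 CPM. Across rag2_GFP the 3 genes written MPEG1, pooled here as mpeg1.1, were at 768 CPM together, and the other 6 macrophage markers had no read. The copy ccl35.2 was found in all 7 cells with ccl35.1 at 10 CPM or more, at 2.82 to 8.48 reads per 100 ccl35.1 reads. In contrast to the ccl38 copies per 100 ccl38.6 reads, these proportions overlapped between the 3 lines. Reads of ccl35.1 assigned to ccl35.2 cannot be told apart from expression of ccl35.2 here, and their part was not tested.

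The gene ccl34b.8 (ENSDARG00000093098) was at 13.02 CPM (12.02 to 14.09) in cd41_GFPlow, from 3 cells at 105.5 to 254.2 CPM, 2 of them with the macrophage list and A09 with 2 of its markers. It was at 5.82 CPM in lck_GFP_rag1, all from F12, which had all 7 macrophage markers. Although it lies in the same row of genes as ccl34b.4, with 2 genes between them in GRCz12tu, no cell had both at 10 CPM.

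The remaining genes at 10 CPM in a summed profile came from 1 or 2 cells. The gene cxcl11.4, next to cxcl11.3, was at 54.5 CPM (52.3 to 56.7) in lck_GFP_rag1, from F12 at 780.9 and H05 at 119.4 CPM, the 2 cells of the line with the macrophage list, and had no read elsewhere. The same 2 cells held cxcl11.8, cxcl11.6 and cxcl11.7, the last 2 with 1 read each in H05, which had 92121 reads. The gene ccl34b.9 was at 32.6 CPM in lck_GFP_rag1 from the cell B09 (889.0 CPM), which also had ccl34b.4. The gene ccl39.6 was at 17.9 CPM there from 2 cells (A06 and F03). Each of these 3 levels thus rests on 1 or 2 of 31 cells.

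The gene CXCL12 (ENSDARG00000037116), written in capitals in the table, was at 11.9 CPM (10.6 to 13.4) in mpx_EGFP, all from well G07 at 638.3 CPM, and had no read in the 5 other lines. The same cell held most reads of ccl25b, whose mammalian relative CCL25 draws T cell precursors through CCR9. It had the neutrophil markers npsn, lyz and mmp13a together with the erythroid genes hbaa1, hbaa2 and alas2, and none of the matched stromal or endothelial markers had a read in the line. Genes of the cxcl8 group, named after the mammalian neutrophil attractant, were found in few mpx_EGFP cells. The copy cxcl8b.1 was at 3.56 CPM from 2 of 47 cells, and at 5.77 CPM in cd41_GFPlow from 1 cell (A12) with c1qa, c1qb and c1qc. Its neighbour cxcl8b.3 was at 2.01 CPM from 1 mpx_EGFP cell. The 15 genes with a read that stayed below 10 CPM had highest levels of 0.0234 to 5.77 CPM, and 14 of them reached 10 CPM in at least 1 cell, in at most 12 cells.

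Receptor genes were read for the ligand pairs that are well known in mammals. Of 24 receptor genes, 18 reached 10 CPM in a line, and 5 were called higher in lck_GFP (8.64% of all genes were), 5 in cd41_GFPlow (6.43%), 3 in rag2_GFP (15.9%), 2 in lck_GFP_rag1 (8.59%) and none in mpx_EGFP (6.03%) or Runx123_GFP (11.3%). For rag2_GFP this is 16.7% of the 18, near the share of all genes. As for the ligands, the filter uses the same levels. CCR7, CCR6 and CXCR5, for example, were measured because they were high in 1 line. Of the 2 genes called in lck_GFP_rag1, ACKR3 had all its reads there in 1 cell. These counts are descriptions and not a test. Lower calls numbered 15 in Runx123_GFP (25.3% of all genes), 10 in cd41_GFPlow (20.9%), 15 in mpx_EGFP (39.2%), 10 in rag2_GFP (39.2%), 8 in lck_GFP (47.2%) and 7 in lck_GFP_rag1 (49.7%). In lck_GFP, CCR9 (ENSDARG00000055186) was at 2817 CPM in 33 of 38 cells, against 438.6 CPM in 5 of 31 lck_GFP_rag1 cells and at most 25.2 CPM elsewhere. The other CCR9 gene, ENSDARG00000099738, was at 23.94 CPM in cd41_GFPlow from 2 cells and 6.28 CPM in rag2_GFP. It had no read in the 4 other lines, among them lck_GFP. CCR7 was at 738.2 CPM in lck_GFP, in 19 cells, at 6.37 CPM in rag2_GFP and without a read in the 4 other lines. CCR6 was at 217.3 CPM in 3 lck_GFP cells and without a read elsewhere, and ccr10 was at 128.4 CPM, 96.2% of it from 1 cell. Of the ligands paired with these receptors, ccl20a.3 was found in the same line, as given above. Each of the others came from 1 cell at 10 CPM or more, with ccl25b at 1.84 CPM in mpx_EGFP, ccl19b at 4.52 CPM in lck_GFP and ccl27b at 1.90 CPM in cd41_GFPlow.

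In lck_GFP_rag1 the receptor CCR8 was at 288.5 CPM, in 5 of 31 cells, against 16.98 CPM in lck_GFP. The CXCR4 gene ENSDARG00000041959 was found in every line, from 294.1 CPM in Runx123_GFP to 3822 CPM in mpx_EGFP, where all 47 cells had it, while its ligand CXCL12 came from 1 cell. The other CXCR4 gene, ENSDARG00000057633, had a different pattern. It was at 561.9 CPM in lck_GFP, 472.4 in rag2_GFP, 92.58 in lck_GFP_rag1 and 5.04 in cd41_GFPlow. In Runx123_GFP and mpx_EGFP it had no read. CXCR5, which guides B cells to follicles in mammals, was at 570.1 CPM in rag2_GFP in 16 of 48 cells. The CXCR3 relative cxcr3.2 was at 465.1 CPM in cd41_GFPlow in 26 of 43 cells, the line that also held cxcl11.3. Another relative, cxcr3.3, was at 48.18 CPM there, in 6 cells, and at 28.14 CPM in mpx_EGFP. The gene written CXCR3 had a different pattern, with 4.24 CPM in cd41_GFPlow from 1 cell. It was at 119.0 CPM in lck_GFP_rag1 from 4 cells, and at 118.5 in lck_GFP and 48.71 in rag2_GFP from 1 cell each. The cxcl8 receptor gene cxcr1 was at 3.01 CPM in mpx_EGFP.

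Few other cytokine genes were measured. Of 9 cytokine genes in the table, 3 reached 10 CPM in a line: mif at 30.3 to 98.8 CPM in all 6 lines, tnfb at 132.3 CPM in lck_GFP_rag1 from 3 cells and 35.3 CPM in lck_GFP from 1 cell, and tgfb1a at 26.9 CPM in lck_GFP from 1 cell. The interferon gene ifng1 was at 1.29 CPM in lck_GFP_rag1 and 0.434 CPM in lck_GFP, and il1b at 9.54 CPM in mpx_EGFP.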

How the data were processed

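The authors deposited a table of whole-number read counts for each gene (Ensembl) in each cell. Tools named in the submitters' processing notes are STAR, featureCounts and Picard, with no version, and the build GRCz10. Per the file headers, a second table holds for each well the percent of read pairs mapped once or several times, and PCR duplicates as a fraction. Counts were summed per line and divided by the line's total (CPM). No cell of the count table was left out. The second table lists 384 wells and the count table holds 246 cells, so shares are over the cells with counts only. The labels name no molecular identifiers, so amplified reads are not independent molecules. Intervals are exact Poisson for CPM, exact Clopper-Pearson for shares, and exact conditional binomial for folds, all at 95%. The floor is 3 reads, and 0 cells allow a share of up to 3 cells of the line, a limit below the exact upper bound.

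A log2 ratio used a pseudocount of 1 CPM, and a call needed 10 CPM in at least 1 line and 4-fold. Ligand genes at 10 CPM in a summed profile and in 3 cells of a line were described in full, those from 1 or 2 cells were named with markers, and the rest by range. The genes, marker lists and pairs were chosen with earlier results of these data known. Neighbours came from RefSeq GRCz12tu, where 30 of 32 genes matched, and were used for order alone. Scaling was repeated with edgeR 4.0.16 and DESeq2 1.42.0 factors. Other tools were Python 3.11.15, pandas 2.3.3, numpy 2.4.6, scipy 1.17.1, matplotlib 3.10.9 and R 4.3.3. The ratio and the 4-fold call were tested on simulated line sums with counting error alone and no spread between cells. That test does not cover levels that rest on few cells.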

Additional observations from a re-analysis of the deposited data

How the results depend on the processing

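Summed levels rest on few cells, and taking out, gene by gene, the top cell of every line moved most counts. Genes at 10 CPM then numbered 0 in Runx123_GFP, 1 in cd41_GFPlow, 0 in mpx_EGFP and 5 in lck_GFP_rag1. Higher calls were 1 in cd41_GFPlow, 0 in mpx_EGFP, 1 in rag2_GFP and 5 in lck_GFP_rag1, and lower calls 8 in Runx123_GFP, 8 in mpx_EGFP, 7 in rag2_GFP and 5 in lck_GFP. Without cells with at least 3 macrophage markers, an alternative chosen after seeing the data, cd41_GFPlow had 0 genes at 10 CPM and 0 higher calls, rag2_GFP had 1 higher and lck_GFP 7 lower calls. The log2 ratio of ccl35.1 in cd41_GFPlow turned to -0.39. Higher calls in rag2_GFP were also 1 by the mean of per-cell CPM, in cells with at least 1000 genes, with no filter and at 2-fold. In lck_GFP they were 4 by the mean of per-cell CPM and in cells with at least 1000 genes, and in Runx123_GFP 1 with no filter. In cd41_GFPlow they were 2 with a pseudocount of 5 CPM, at 8-fold and against the highest other line, and 0 with a filter of 50 CPM. In mpx_EGFP they were 0 with a pseudocount of 5 CPM and with a filter of 50 CPM. Lower calls with a pseudocount of 5 CPM, a filter of 50 CPM and 8-fold were 7, 8 and 9 in Runx123_GFP, 7, 8 and 9 in mpx_EGFP, 7, 8 and 8 in rag2_GFP, 4, 5 and 4 in lck_GFP and 1 in lck_GFP_rag1 each time. In lck_GFP_rag1 they were 6 at 2-fold and against the highest other line. Genes at 1 CPM numbered 2, 8, 5, 3, 8 and 15 (Runx123_GFP, cd41_GFPlow, mpx_EGFP, rag2_GFP, lck_GFP, lck_GFP_rag1), and at 50 CPM there were 0 in cd41_GFPlow, mpx_EGFP and rag2_GFP. With at least 1 read as the threshold per cell, 29.8% of mpx_EGFP and 100% of lck_GFP_rag1 cells had a ligand, and 58.3% of the lck_GFP cells with at least 1000 genes did. The cause was not tested where the alternative's own construction does not give it. The edgeR and DESeq2 factors moved all genes of a line by -0.2213 to 0.3473 (log2) and left every count of genes within 1.5 times. The summed CPM of a gene described in full left its Poisson interval in 93 of 128 alternative values. With the edgeR factors 9 of 16 values did, and with the DESeq2 factors 10 of 16. Without each gene's top cell 16 of 16 did. The narrow Poisson intervals thus do not cover such choices. No paired analysis was possible because each line is 1 sample. For the same reason no replicate could be left out, and precision is set by 31 to 48 cells a line.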
